A study of Mus musculus with 19 samples.

Results

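The genes described are 10 mouse genes of the major histocompatibility complex (MHC) pathways for antigen presentation, taken as the rows of a gene count table whose Ensembl identifier carries their symbol. All 10 were found among 34807 genes, and all 10 passed the filter on low counts. The 5 genes of class I are H2-K1 and H2-D1, which encode the classical heavy chains, B2m, the light chain that pairs with them, and Tap1 and Tap2, the subunits of the peptide transporter. The 5 genes of class II are H2-Aa, H2-Ab1 and H2-Eb1, which encode chains of the class II molecules, Cd74, the invariant chain that guards their peptide groove, and Ciita, the transactivator of the whole set.

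Class I molecules are made by nearly every nucleated cell and show peptides from the cytosol, carried into the endoplasmic reticulum by the transporter, to CD8+ T cells. Class II molecules are made mainly by dendritic cells, Langerhans cells, macrophages and B cells, and show peptides from endosomes to CD4+ T cells. In skin the class II genes are therefore known above all as products of resident immune cells, while interferon gamma can switch on both classes in keratinocytes through Nlrc5 for class I and Ciita for class II.

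RNA sequencing was done on whole tissue from female mice of the C57BL/6J background, 15 skin tumours labelled squamous cell carcinoma and 4 samples of normal skin. The tumours carried BRAFV600E, an activated kinase of the MAPK pathway, switched on by a Cre that an oestrogen receptor ligand activates (CreERT2), in mice 7 to 20 weeks old per the labels, with the inducer put on shaved back skin. In 6 tumours (Ivl) Cre was driven by the involucrin promoter, active in differentiating keratinocytes and part of the basal layer, in 5 (K5) by the Krt5 promoter and in 4 (K14) by the Krt14 promoter, both active in basal keratinocytes, so a group stands for a promoter and not for sorted cells. By the methods of the study Ivl mice received tamoxifen and K5 and K14 mice 4-hydroxytamoxifen, so that promoter and inducer cannot be told apart, and the labels do not say whether the libraries of a group came from separate mice. The paper also reports a much longer time to tumours in Ivl mice. Their lesions arose at several body sites, those of K5 and K14 mice on the back. Promoter, time since induction and body site therefore cannot be told apart either. Normal skin (NS) was labelled wild type, without the BRAF allele, so that genotype and tissue change together in each comparison of tumour with skin. The K5 and K14 groups were set against each other and also joined (K5/K14, 9 tumours).

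Library totals lay between 45715309 and 72609771 counts. Keratinocyte markers were present in all libraries, with summed CPM (counts scaled to library size by the TMM method) of 38406 to 104823 in tumours and 7989 to 13742 in skin. Skeletal muscle markers summed to 2123 to 6151 CPM in skin, 3676 in Ivl 2 and 1157 in Ivl 3, and to 4.13 to 419 in the other tumours. Rn7sk, a short nuclear RNA that is not polyadenylated, took 2279 to 3275 CPM of the total in skin, 1283 in Ivl 2, 934 in Ivl 3 and 2.12 to 13.3 in the other tumours. Skin libraries had 3242 to 3670 genes at 0 and tumours 5562 (Ivl 2) to 10882, and protein-coding genes took 93.2% to 95.9% of counts in skin and 96.1% to 98.3% in tumours. The part of these signs of library make-up in the differences from skin was not tested. The deposited counts had been adjusted for a sequencing batch that the labels do not assign to libraries. Ivl 1, Ivl 2, Ivl 3 and K5 1 had as a set almost the average of the remaining 15 libraries, with a difference under 0.1 log2 for 96.6% of 13954 genes. For the 10 MHC genes the difference lay between -0.06 and 0.02 log2. The set holds tumours only, while the other 15 libraries hold all 4 skin samples. In these 4 tumours an effect of the batch adjustment and a likeness to skin therefore cannot be told apart. Results are therefore given over 19 libraries and again within the 15 libraries outside this set of 4. A gene counted as changed at an adjusted p under 0.05 (edgeR quasi-likelihood F test, two-sided, Benjamini-Hochberg over 32031 genes). The median log2 fold change of all genes was -0.46 in Ivl and -0.60 in K5/K14 tumours against skin, and -0.01 and -0.04 over protein-coding genes.

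Promoters are shown because both classes are known to share a set of short elements upstream of the start, the X1, X2 and Y boxes, through which Ciita and Nlrc5 act with the RFX complex, and because the class II genes varied together. A RefSeq promoter entry was found for 6 of the 10 genes, H2-K1, H2-D1, B2m, Tap1, H2-Aa and H2-Eb1. The 250 bases before the annotated start are given 5′ to 3′ on the strand of the gene (GRCm38.p6) for a pair from each class, H2-Aa at chr17:34287824-34288073 (minus strand), H2-Eb1 at chr17:34305617-34305866 (plus strand), B2m at chr2:122147437-122147686 (plus strand) and H2-K1 at chr17:34000348-34000597 (minus strand, the first of its 2 annotated starts). Capitals mark the Y box core CCAAT, the X2 box core TGACG, the X1 box core AGCAAC and the interferon-stimulated response element, all searched on both strands, with the overlapping X2 cores of H2-Aa counted as 2 matches.
H2-Aa: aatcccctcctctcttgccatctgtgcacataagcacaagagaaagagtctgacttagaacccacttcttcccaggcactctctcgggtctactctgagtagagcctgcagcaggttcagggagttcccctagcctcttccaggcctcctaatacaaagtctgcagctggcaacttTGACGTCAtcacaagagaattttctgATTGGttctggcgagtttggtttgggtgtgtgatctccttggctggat
H2-Eb1: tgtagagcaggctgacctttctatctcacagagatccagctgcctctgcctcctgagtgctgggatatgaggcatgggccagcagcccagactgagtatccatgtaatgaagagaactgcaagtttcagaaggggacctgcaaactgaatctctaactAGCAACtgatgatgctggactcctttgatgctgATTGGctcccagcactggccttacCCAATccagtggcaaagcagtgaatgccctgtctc
B2m: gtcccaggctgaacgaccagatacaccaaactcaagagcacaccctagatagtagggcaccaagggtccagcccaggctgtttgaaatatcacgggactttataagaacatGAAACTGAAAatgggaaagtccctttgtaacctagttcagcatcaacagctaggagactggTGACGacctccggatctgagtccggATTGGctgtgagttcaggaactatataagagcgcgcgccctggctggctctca
H2-K1: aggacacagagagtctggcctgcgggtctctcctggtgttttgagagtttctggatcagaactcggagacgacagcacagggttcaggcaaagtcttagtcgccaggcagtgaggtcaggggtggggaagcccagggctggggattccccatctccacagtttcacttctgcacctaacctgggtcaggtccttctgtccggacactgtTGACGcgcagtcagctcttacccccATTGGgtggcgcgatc
In H2-Aa the X2 core lay on both strands as an overlapping palindrome 74 to 67 bases before the start, followed by the Y box at 48 to 44. H2-Eb1 held the X1 core at 92 to 87, a Y box at 59 to 55 and another at 35 to 31. B2m held the X2 core at 78 to 74, the Y box at 53 to 49 and a match of the response element pattern at 139 to 130. The windows of the other 5 genes held no match of this strict pattern, and looser forms of the element were not searched. H2-K1 held the X2 core at 41 to 37 and the Y box at 16 to 12. Each of the 6 genes had a Y box core, against 33.8% of 32851 promoter windows of the same length, and 5 of 6 had an X2 core, against 17.8% of windows. The X1 core was in H2-Eb1 only, the gene without an X2 core, against 12.2% of windows. The response element pattern was in B2m only, against 2.98% of windows. The NF-kappaB pattern was in H2-K1, H2-D1 and H2-Aa, against 4.77% of windows. The gamma-activated pattern was in none of the 6 genes, against 7.02% of windows. These are matches of letters and were not tested as sites.

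Of the 10 genes, 7 lie in the H2 locus on chromosome 17 (GRCm38, GENCODE M21), in the order H2-K1 (ENSMUSG00000061232, 33996017 to 34000347, minus strand), Tap1 (ENSMUSG00000037321, 34187553 to 34197225), Tap2 (ENSMUSG00000024339, 34203527 to 34216321), H2-Ab1 (ENSMUSG00000073421, 34257689 to 34269419), H2-Aa (ENSMUSG00000036594, 34282744 to 34287823, minus strand), H2-Eb1 (ENSMUSG00000060586, 34305867 to 34316674) and H2-D1 (ENSMUSG00000073411, 35262730 to 35267499). B2m (ENSMUSG00000060802) lies on chromosome 2 from 122147686 to 122153083, Ciita (ENSMUSG00000022504) on chromosome 16 from 10480059 to 10528418 and Cd74 (ENSMUSG00000024610) on chromosome 18. All are protein-coding, and the values are sums over exons.

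Per length of exon, B2m was the highest of the 10 genes in every group and Ciita the lowest. Over the 15 tumours the mean level was 369.7 CPM per kb for B2m, 234 for H2-D1, 164 for H2-K1, 110.4 for Cd74, 44.3 for H2-Eb1, 37.7 for H2-Ab1 and 29.6 for H2-Aa. Tap1, Tap2 and Ciita followed at 5.49, 3.77 and 0.877 CPM per kb. Normal skin kept this order except for Cd74, which stood in second place there at 254 CPM per kb, above H2-D1 at 174.

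**Figure D1:**
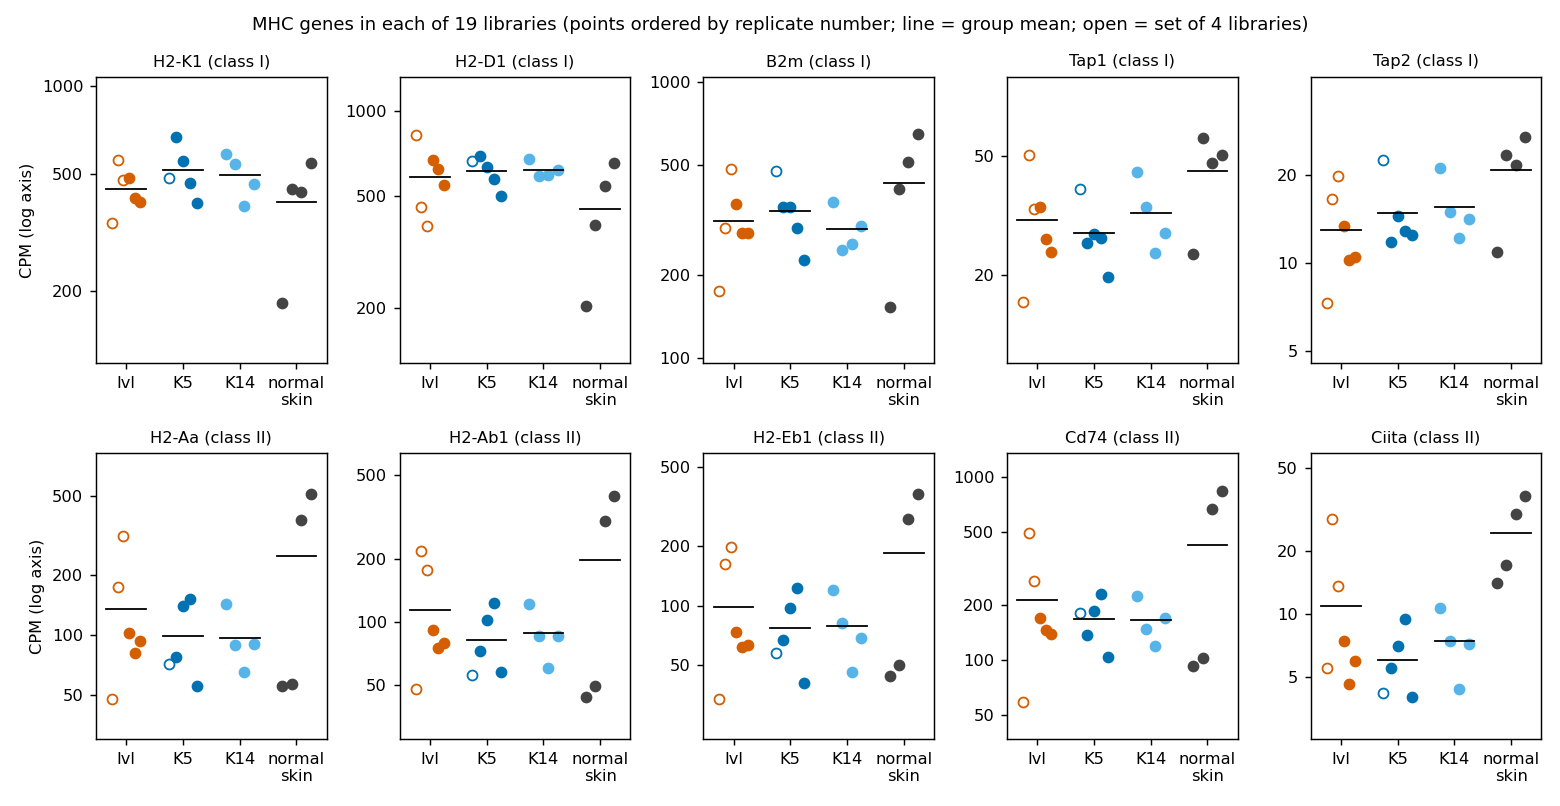
Each panel plots the level of 1 gene (CPM, log axis) in the 6 Ivl, 5 K5 and 4 K14 tumours and the 4 samples of normal skin, 1 point per library ordered by replicate number, with the group mean as a line and the set of 4 libraries as open points. The class II chains and Cd74 fall into a low and a high pair in skin, and Ciita in K5 and K14 tumours lies below all 4 skin samples.

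K5/K14 tumours held less class II RNA than normal skin, with all 5 genes past the threshold, but the chains and Cd74 differed far more between skin samples than between tumours. H2-Aa stood at 55.5, 56.8, 378 and 509 CPM in skin samples 1 to 4. It stood at 70.9, 77.7, 139, 151 and 55.3 CPM in K5 tumours 1 to 5 and at 142, 88.7, 65.1 and 89.4 CPM in K14 tumours 1 to 4. The tumours thus lay between the low pair of skin samples (1 and 2) and the high pair (3 and 4), with 8 of 9 above both low samples and 9 of 9 below both high ones, and the groups overlapped. In whole tissue, fewer cells of a type and less RNA per cell cannot be told apart. Fitted over all samples, H2-Aa was 2.56-fold lower in K5/K14 tumours (log2 fold change -1.35 ± 0.52 SE, adjusted p = 0.0302).

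The other chains followed. Skin samples 1 to 4 held 44.2, 49.4, 303 and 396 CPM of H2-Ab1, against a lowest, median and highest value of 56.1, 85.8 and 123 CPM in K5/K14 tumours. For H2-Eb1 these were 43.9, 50.3, 272 and 366 CPM in skin and 40.8, 68.7 and 122 CPM in the tumours. For Cd74 they were 92.7, 102, 671 and 841 CPM in skin and 104, 170.3 and 230.3 CPM in the tumours. All 3 genes had the same pair of low and pair of high skin samples as H2-Aa, and every K5/K14 tumour lay below the high pair. H2-Ab1 was 2.33-fold lower (log2 fold change -1.22 ± 0.48 SE, adjusted p = 0.0334), H2-Eb1 2.35-fold lower (log2 fold change -1.23 ± 0.50 SE, adjusted p = 0.0414) and Cd74 2.56-fold lower (log2 fold change -1.35 ± 0.50 SE, adjusted p = 0.0268).

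Ciita, the transactivator, showed the clearest separation. It stood at 14.0, 17.2, 30.2 and 36.8 CPM in skin samples 1 to 4, at 4.19, 5.52, 7.04, 9.42 and 4.0 CPM in K5 tumours 1 to 5 and at 10.7, 7.37, 4.36 and 7.20 CPM in K14 tumours 1 to 4. All 9 tumours lay below all 4 skin samples, including the pair of skin samples with few class II transcripts. Ciita was 3.7-fold lower in K5/K14 tumours (log2 fold change -1.89 ± 0.40 SE, adjusted p = 0.000614). Values failed to overlap between these groups for 41.4% of all genes tested, and for 1 of the 10 MHC genes, Ciita. Read against the background, 6 of 10 MHC genes were called lower in K5/K14 tumours (5 of 5 in class II and Tap1 in class I) and 0 higher, while 38.9% of all genes were called lower and 23.2% higher. Ciita overlaps Dexi, a protein-coding gene on the opposite strand. The use of strand in the counting is not given in the sources used here, so reads of Dexi may enter the Ciita values.

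The calls for the chains and Cd74 rested on the high pair of skin samples. Without skin 3 the log2 fold change in K5/K14 tumours was -1.08 for H2-Aa (adjusted p = 0.111) and -1.04 for Cd74 (adjusted p = 0.113). Without skin 4 these were -0.74 (adjusted p = 0.241) and -0.79 (adjusted p = 0.206), and H2-Ab1 and H2-Eb1 lost their calls in both fits too, at -0.94 and -0.97 without skin 3 and at -0.64 and -0.65 without skin 4. H2-Ab1 also passed the threshold by so little that leaving out K5 1, K5 5 or K14 3 took it to an adjusted p of 0.0504 to 0.0520, and leaving out K5 1, K5 2, K5 5, K14 2, K14 3 or K14 4 took H2-Eb1 to 0.0525 to 0.0641. Ciita stayed past the threshold whichever of the 19 libraries was left out, with a log2 fold change between -2.09 and -1.63.

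**Figure D2:**
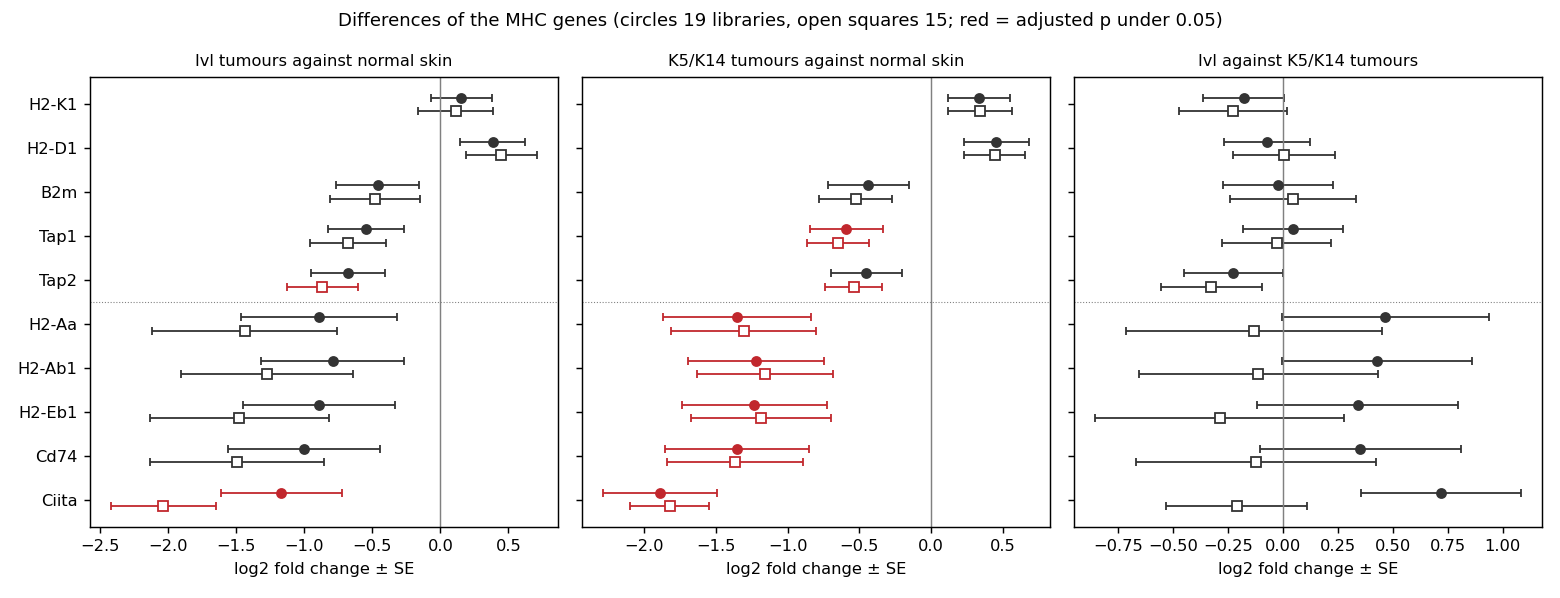
Log2 fold change with its standard error (x axis) of the 5 class I and 5 class II genes (y axis) in Ivl tumours against skin, K5/K14 tumours against skin and Ivl against K5/K14 tumours, over 19 libraries (circles) and within 15 (open squares), with an adjusted p under 0.05 in red. Class II genes lie left of 0 against skin in both tumour groups, H2-K1 and H2-D1 lie right of 0, and no gene is red between the tumour groups.

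The split of the skin samples ran through the immune cell markers as well. Leukocyte markers (Ptprc, Cd52, Coro1a, Laptm5, Cd53) summed to 53.2 and 58.8 CPM in skin 1 and 2 and to 291 and 344 CPM in skin 3 and 4. Macrophage and monocyte markers (12 genes) summed to 215.5, 137, 1215 and 1599 CPM in skin 1 to 4, dendritic cell markers (9 genes) to 19.5, 26.1, 65.1 and 84.6 CPM and T cell markers (8 genes) to 4.22, 13.4, 24.7 and 32.3 CPM. Mean levels in skin 3 and 4 exceeded those in skin 1 and 2 by 7.89-fold for H2-Aa, 7.47-fold for H2-Ab1, 6.78-fold for H2-Eb1 and 7.75-fold for Cd74, but by 2.15-fold for Ciita, 2.07-fold for B2m and 1.21-fold for Tap1. In the K5/K14 tumours the leukocyte sum was 61.4 to 141 CPM and the macrophage sum 225 to 588 CPM, both above the low pair of skin samples and below the high pair, while the dendritic cell sum was 14.8 to 34.9 CPM, with 5 of 9 tumours below skin 1, and the T cell sum 3.09 to 12.4 CPM, with all 9 below skin 2. No marker in these 4 lists was at 0 in every library of a group. The part of immune cell content in the class II differences was not tested.

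**Figure D3:**
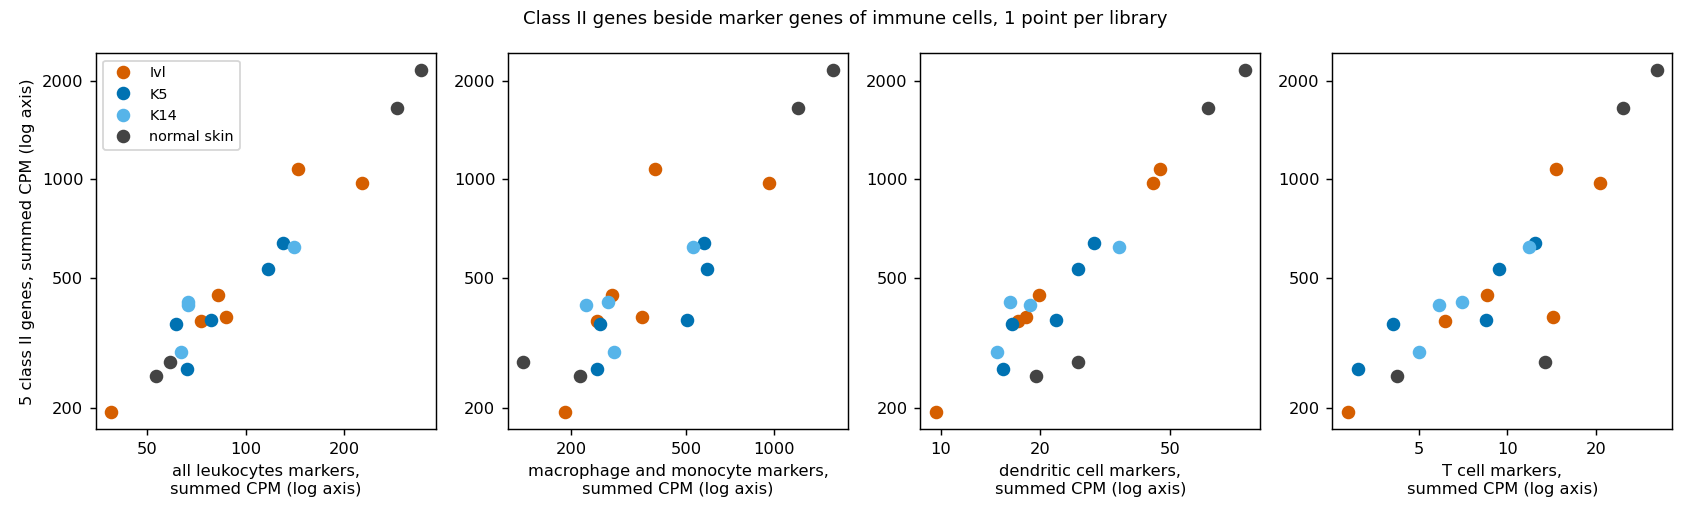
Summed CPM of the 5 class II genes (y axis, log) against the summed CPM of leukocyte, macrophage and monocyte, dendritic cell and T cell markers (x axes, log), 1 point per library coloured by group. Skin 3 and 4 lie at the upper right of every panel, and skin 1 and 2 lie among or beside the tumours with few class II transcripts.

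In Ivl tumours Ciita was the only one of the 10 genes called against skin over 19 libraries, and that call was marginal. The lowest, median and highest Ciita values in the 6 Ivl tumours were 4.62, 6.69 and 28.6 CPM, with Ivl 2 at 28.6 and Ivl 3 at 13.6 CPM above the other 4, which lay at 5.52, 7.44, 4.62 and 5.93 CPM. Of the 6 tumours, 5 lay below all 4 skin samples and Ivl 2 among them. Ciita was 2.25-fold lower (log2 fold change -1.17 ± 0.44 SE, adjusted p = 0.0462), 1 of 10 MHC genes called lower against 15.5% of all genes, with 0 called higher against 20.4%. Values failed to overlap with skin for 0 of the 10 genes and 22.2% of all genes. The call was lost without any 1 of Ivl 1, 4, 5 or 6, K5 2, 3 or 4, K14 2, 3 or 4 and skin 2, 3 or 4, and the log2 fold change ranged from -1.73 without Ivl 2 to -0.91 without skin 4. Ivl 2, with the most Ciita, also had a skeletal muscle sum of 3676 CPM, within the range of skin. Ivl 2 and Ivl 3 had 1283 and 934 CPM of Rn7sk and 5562 and 5820 genes at 0, in both measures the tumours nearest to skin. Both belong to the set of 4, which holds no skin. As a set it had almost the average of the other libraries, which include skin. The labels do not say that this set was an adjusted batch. The part of these signs and of the batch adjustment in the result was not tested.

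Within the 15 libraries, which leave Ivl 4, 5 and 6, Ciita was 4.10-fold lower in Ivl tumours (log2 fold change -2.03 ± 0.38 SE, adjusted p = 0.000438). Tap2 was called there as well (log2 fold change -0.87 ± 0.26 SE, adjusted p = 0.0112), so 2 of 10 genes were lower against 32.7% of all genes. The class II chains and Cd74 had log2 fold changes of -1.44 (H2-Aa), -1.27 (H2-Ab1), -1.48 (H2-Eb1) and -1.49 (Cd74), each farther from 0 than in the K5/K14 tumours of the same fit, with adjusted p of 0.0616 to 0.0997. Over 19 libraries the same genes had -0.89 (adjusted p = 0.210), -0.79 (adjusted p = 0.222), -0.89 (adjusted p = 0.196) and -1.0 (adjusted p = 0.153). In Ivl tumours 1 to 6 H2-Aa stood at 47.7, 174, 312, 102, 81.3 and 92.7 CPM, so that Ivl 2 and 3 were the highest of all tumours and Ivl 1 the lowest. Within the 15 libraries K5/K14 tumours had 7 of 10 genes lower, against 42.3% of all genes, namely the 5 of class II, Tap1 (-0.65, adjusted p = 0.0164) and Tap2 (-0.54, adjusted p = 0.0264).

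In K5 and K14 tumours taken apart, Ciita was the only gene of the 10 called against skin in K5 tumours (log2 fold change -2.03 ± 0.48 SE, adjusted p = 0.00236) and in K14 tumours (log2 fold change -1.73 ± 0.52 SE, adjusted p = 0.0128), 1 of 10 against 33.5% and 25.9% of all genes called lower. The chains and Cd74 had log2 fold changes of -1.25 to -1.35 in K5 and -1.16 to -1.37 in K14 tumours, with adjusted p of 0.0658 to 0.0854 and 0.0902 to 0.125. Without skin 1 the number of the 10 genes called rose to 6 in K5 and 5 in K14 tumours, while 16151 and 12966 of all genes were called. Without skin 2 the number of the 10 was 5 and 3 (15687 and 12231 of all genes). Without skin 4 it was 2 in both (17050 and 13737 of all genes), with H2-D1 higher at 0.68 and 0.70. Without Ivl 2 it was 3 in K5 tumours (18088 of all genes), and it was 2 without Ivl 1, K5 1 or K14 1 (18319, 17897 and 17832 of all genes). Within the 15 libraries Tap1 (-0.85, adjusted p = 0.00884) and Tap2 (-0.68, adjusted p = 0.0206) joined Ciita in K5 tumours, 3 of 10 against 38.4% of all genes, and Ciita alone was called in K14 tumours, against 32.6%.

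Class I genes had estimates on both sides of 0. H2-D1 stood at 204, 395, 542 and 655 CPM in skin 1 to 4 and at 499, 618 and 692 CPM (lowest, median, highest) in K5/K14 tumours. H2-K1 stood at 182, 445, 435 and 545 CPM in skin and 389, 486 and 671 CPM in K5/K14 tumours. Skin 1 was the lowest library for both genes. For H2-D1 all 9 K5/K14 tumours also lay above skin 2, and skin 3 and 4 overlapped them, while for H2-K1 skin 2, 3 and 4 overlapped the tumours. On the log2 scale they differed from skin by 0.46 (adjusted p = 0.0853) and 0.34 (adjusted p = 0.175) in K5/K14 tumours and 0.38 (adjusted p = 0.198) and 0.16 (adjusted p = 0.579) in Ivl tumours, neither called. H2-D1 was called higher only without skin 4, at 0.69 (adjusted p = 0.0183) in K5/K14 tumours. H2-K1 and H2-D1 share near-identical stretches with each other and with the H2-Q genes, so reads may be divided between them in ways the counting does not record.

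B2m, by contrast, had negative estimates. It stood at 154, 411, 515 and 652 CPM in skin 1 to 4, at 228, 303 and 475 CPM in K5/K14 tumours and at 176, 290.5 and 486 CPM in Ivl tumours. The groups overlapped, with skin 1 below all tumours and skin 3 and 4 above all of them. The log2 fold change was -0.44 (adjusted p = 0.175) in K5/K14 and -0.46 (adjusted p = 0.217) in Ivl tumours. Without skin 1 it was -0.71 (adjusted p = 0.0161) and -0.75 (adjusted p = 0.0316). B2m overlaps Patl2 on the opposite strand, and the use of strand in the counting is not given in the sources used here.

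The transporter subunits were lower in tumours where they were called. Tap1 stood at 23.4, 57.6, 47.5 and 50.4 CPM in skin 1 to 4, at 38.9, 25.5, 27.3, 26.6 and 19.6 CPM in K5 tumours and at 44.1, 33.9, 23.6 and 27.6 CPM in K14 tumours. All 9 tumours lay below skin 2, 3 and 4, and 8 of them above skin 1. Tap1 was 1.51-fold lower in K5/K14 tumours (log2 fold change -0.59 ± 0.25 SE, adjusted p = 0.0498), just under the threshold, and the call was lost in 14 of the 19 fits that left out 1 library, among them skin 2, 3 or 4, with a log2 fold change between -0.80 and -0.44. Tap2 stood at 10.9, 23.4, 21.5 and 26.9 CPM in skin, 11.8, 14.1 and 22.4 CPM in K5/K14 tumours and 7.27, 11.9 and 19.8 CPM in Ivl tumours. On the log2 scale it differed from skin by -0.45 (adjusted p = 0.120) in the first and -0.68 (adjusted p = 0.0562) in the second. Without skin 1, Tap1 (-0.76, adjusted p = 0.0418) and Tap2 (-0.89, adjusted p = 0.0161) were called in Ivl tumours too. Without Ivl 2, Tap1, Tap2, Cd74 and Ciita were called there, 4 genes in all, while 13920 of all genes were called. Tap1 overlaps Psmb9, which is described with the class I pathway, on the opposite strand.

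No difference between tumours of the 3 promoters was detectable in the 10 genes. Between Ivl and K5/K14 tumours 0 of 10 were called with edgeR, 0 had an unadjusted p under 0.05 and 0 were called with DESeq2, against 2.36% of all genes (756) called with edgeR and 2133 genes with DESeq2. The estimates for class I lay between -0.23 (Tap2) and 0.04 (Tap1), with SE of 0.19 to 0.25. For class II they lay between 0.34 ± 0.46 (H2-Eb1) and 0.72 ± 0.36 (Ciita, adjusted p = 0.263) over 19 libraries. Within the 15 libraries they turned to the other side of 0 for all 5 class II genes, at -0.11 (H2-Ab1) to -0.29 (H2-Eb1), with SE of 0.32 to 0.58, and 0 of 10 were called against 0.41% of all genes. Between K5 and K14 tumours 0 of 10 were called with edgeR, 0 had an unadjusted p under 0.05 and 0 were called with DESeq2, while 0% of all genes were called with edgeR and 201 genes with DESeq2. The SE of a class II gene between K5 and K14 tumours was 0.48 to 0.62, so smaller differences between tumour groups could lie within the error.

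By group mean, H2-Aa, H2-Ab1, H2-Eb1, Cd74 and Ciita ranked skin first and Ivl second, with K5 and K14 tumours close together, for example 427 ± 387 CPM (SD, n = 4) for Cd74 in skin, 213 ± 154 CPM (n = 6) in Ivl, 168 ± 48.5 CPM (n = 5) in K5 and 166 ± 44.6 CPM (n = 4) in K14 tumours. H2-D1 had the reverse order, 620.1 ± 41.2 CPM in K14, 613 ± 76.8 CPM in K5, 586 ± 156 CPM in Ivl tumours and 449 ± 195 CPM in skin. The second place of Ivl rested on Ivl 2 and Ivl 3, both in the set of 4. For Ciita the median was 6.69 CPM in Ivl and 7.29 CPM in K14 tumours, and within the 15 libraries the estimates of all 5 class II genes were lower in Ivl than in K5/K14 tumours, none called. Neighbouring tumour groups in these orders did not differ beyond their spread.

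Across the 15 tumours the class II genes varied together. The 10 pairs among them had Pearson r of log2 CPM of 0.80 to 0.97 (median 0.90), against -0.39 to 0.83 (median 0.58) for the 10 pairs of class I. In the 11 tumours outside the set of 4 these were 0.89 to 0.98 (median 0.96) for class II and 0.38 to 0.86 (median 0.62) for class I. Ciita was related to each of the other 4, with r = 0.80 and rho = 0.90 for H2-Aa (permutation p = 0.000650 and 2.0e-05), r = 0.93 and rho = 0.93 for H2-Ab1 (permutation p = 1.0e-05 and 2.0e-05), r = 0.85 and rho = 0.93 for H2-Eb1 (permutation p = 1.0e-05 for both) and r = 0.82 and rho = 0.78 for Cd74 (permutation p = 0.000220 and 0.000850). A p of 1.0e-05 is the smallest that 100000 resamples give. In a family of 8 relations the adjusted p of r was at most 0.00130 for these 4. In the 11 tumours outside the set of 4, r was 0.89 to 0.95. Without Ivl 2 and Ivl 3, the tumours farthest from the median of Ciita, r was 0.57 for Cd74 (permutation adjusted p = 0.0605), which no longer passed, with rho = 0.66 (permutation adjusted p = 0.0331), which did pass, and r was 0.82 to 0.87 for the chains. The immune cell marker sums were set beside these genes only in a plot, and no correlation with them was computed. Ivl 1 was the lowest tumour both in summed class II genes (194 CPM) and in leukocyte markers (38.8 CPM). Ivl 2 was the highest in class II genes (1076 CPM), but its macrophage sum of 390 CPM lay below that of K5 1 (502 CPM). The part of immune cell content in the relation was not tested.

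The ratio of H2-Aa to Ciita set skin 1 and 2 apart. H2-Aa CPM per Ciita CPM was 3.96 and 3.30 in skin 1 and 2, 12.5 and 13.8 in skin 3 and 4 and 12 to 19.7 in the 11 tumours outside the set of 4. In the set of 4 it was 8.64 in Ivl 1, 6.08 in Ivl 2, 22.98 in Ivl 3 and 16.9 in K5 1. Skin 1 and 2 thus held less H2-Aa for their Ciita than any tumour. This ratio was chosen after the values were seen and was not tested. The overlap of Ciita with Dexi limits it as well.

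**Figure D4:**
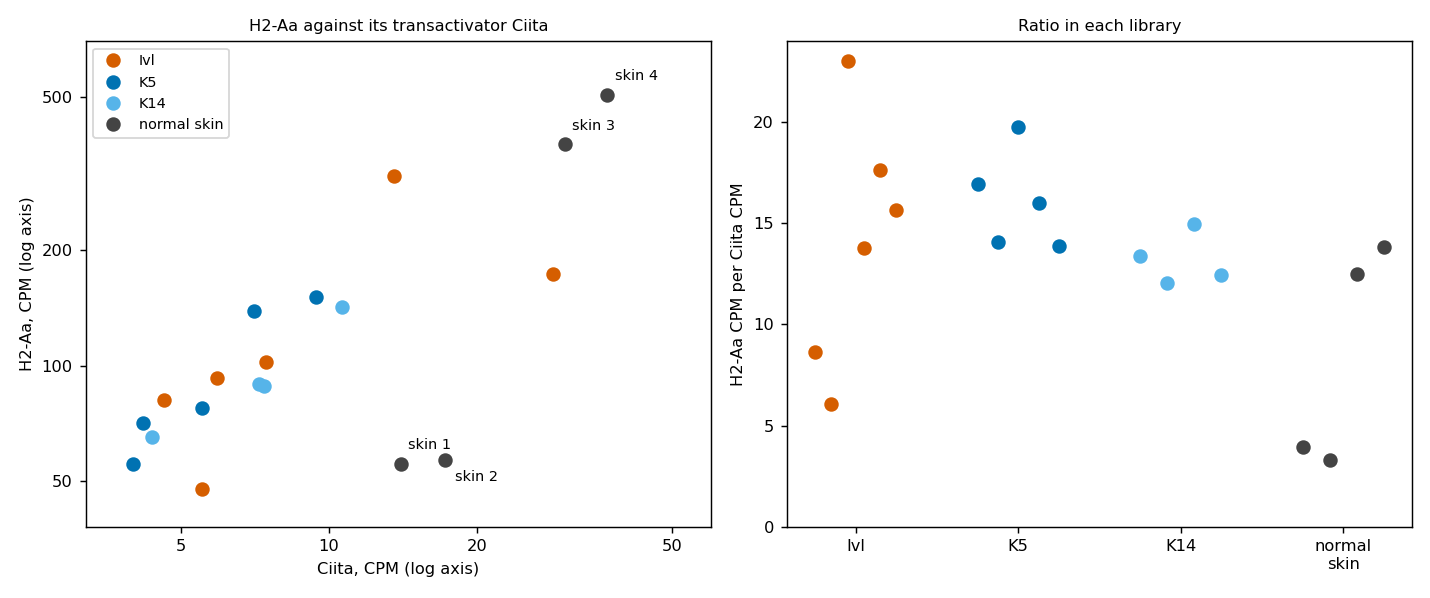
Left, H2-Aa against Ciita (CPM, both axes log), 1 point per library, with the skin samples numbered. Right, H2-Aa CPM per Ciita CPM in each library by group. The 11 tumours outside the set of 4 and skin 3 and 4 run along one band. Skin 1 and 2 lie below it at ratios of 3.96 and 3.30, and Ivl 2 (6.08) and Ivl 1 (8.64) lie between.

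For class I the corresponding regulator is Nlrc5, a relative of Ciita. It stood at 47.3, 127, 65.9 and 60.7 CPM in skin 1 to 4, at 28.5, 39.0 and 82.0 CPM in K5/K14 tumours and at 22.4, 44.3 and 71.5 CPM in Ivl tumours, with overlap between the groups. It fell in K5/K14 tumours (log2 fold change -0.79 ± 0.28 SE, adjusted p = 0.0195) and had -0.73 (adjusted p = 0.0652) in Ivl tumours. Over the 15 tumours Nlrc5 was related to Tap1 (r = 0.75, rho = 0.66, permutation p = 0.00148 and 0.00950) and by r alone to B2m (r = 0.55, rho = 0.36, permutation p = 0.0338 and 0.182). For H2-K1 r was 0.42 and rho 0.41 (permutation p = 0.117 and 0.130), and for H2-D1 r was -0.30 and rho -0.15 (permutation p = 0.274 and 0.596). Within the 11 tumours outside the set of 4 the relation with Tap1 was r = 0.32 and that with B2m r = 0.03 (permutation adjusted p = 0.521 and 0.922). Without Ivl 1 and K5 1, the tumours farthest from the median of Nlrc5, they were r = 0.63 and r = 0.00 (permutation adjusted p = 0.0442 and 0.993), and rho for Tap1 was 0.53 (permutation adjusted p = 0.108). The relation with B2m thus rested on Ivl 1 and K5 1, and that with Tap1 passed without them by r and not by rho.

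Beyond the 5 class II genes, 13 of the 14 listed genes of the class II pathway were tested. Of these, 6 fell and 3 rose in K5/K14 tumours, where 38.9% of all genes fell and 23.2% rose. The 13 had a median log2 fold change of -0.55, against -0.60 over all genes and -0.04 over protein-coding genes. Those that fell were the peptide loading genes H2-DMa (-1.28, adjusted p = 0.0137), H2-DMb1 (-1.10, adjusted p = 0.0321), H2-DMb2 (-1.75, adjusted p = 0.00614), H2-Oa (-1.37, adjusted p = 0.0441) and H2-Ob (-1.89, adjusted p = 0.00585), which act on the class II groove in endosomes, and Rfx5 (-0.55, adjusted p = 0.0208), a subunit of the RFX complex that recruits Ciita. H2-DMa showed the split of the skin samples, at 7.61, 8.81, 34.9 and 38.4 CPM in skin 1 to 4 and 5.68, 8.81 and 13.6 CPM in K5/K14 tumours. Those that rose were Ctsl (2.44, adjusted p = 2.54e-05), an endosomal protease, Ifi30 (0.61, adjusted p = 0.0470), a lysosomal thiol reductase, and Rfxap (1.04, adjusted p = 1.54e-06), a further subunit of the RFX complex. The call for Ifi30 was lost in 19 of 26 alternatives. Of 27 alternatives, H2-Oa lost its call in 10, H2-DMb1 in 6, H2-DMa in 3 and Rfx5 in 2. H2-DMb2 and H2-Ob were called in all 27.

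Rfxap went the opposite way to Ciita. It stood at 8.89, 9.89, 9.29 and 9.998 CPM in skin 1 to 4 and at 12.8 to 21.5 CPM in the 15 tumours, all above all 4 skin samples. It rose 2.06-fold in K5/K14 and 1.77-fold in Ivl tumours (log2 fold change 0.82, adjusted p = 2.99e-05), and it was called in each of 27 alternatives in both. The remaining subunit, Rfxank, had -0.12 (adjusted p = 0.558) and -0.19 (adjusted p = 0.391). Ctss, the protease of the invariant chain, had -0.16 (adjusted p = 0.812) and -0.18 (adjusted p = 0.815). In Ivl tumours 0 genes of this list fell, against 15.5% of all genes, and 2 rose, against 20.4%, over 19 libraries, Ctsl (1.61, adjusted p = 0.00203) and Rfxap. Within the 15 libraries 5 fell and 2 rose, against 32.7% of all genes falling, with H2-DMa at -1.51 (adjusted p = 0.0213) and H2-Ob at -2.28 (adjusted p = 0.00629). Between Ivl and K5/K14 tumours 0 of 13 were called with edgeR, with 2 at an unadjusted p under 0.05.

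**Figure D5:**
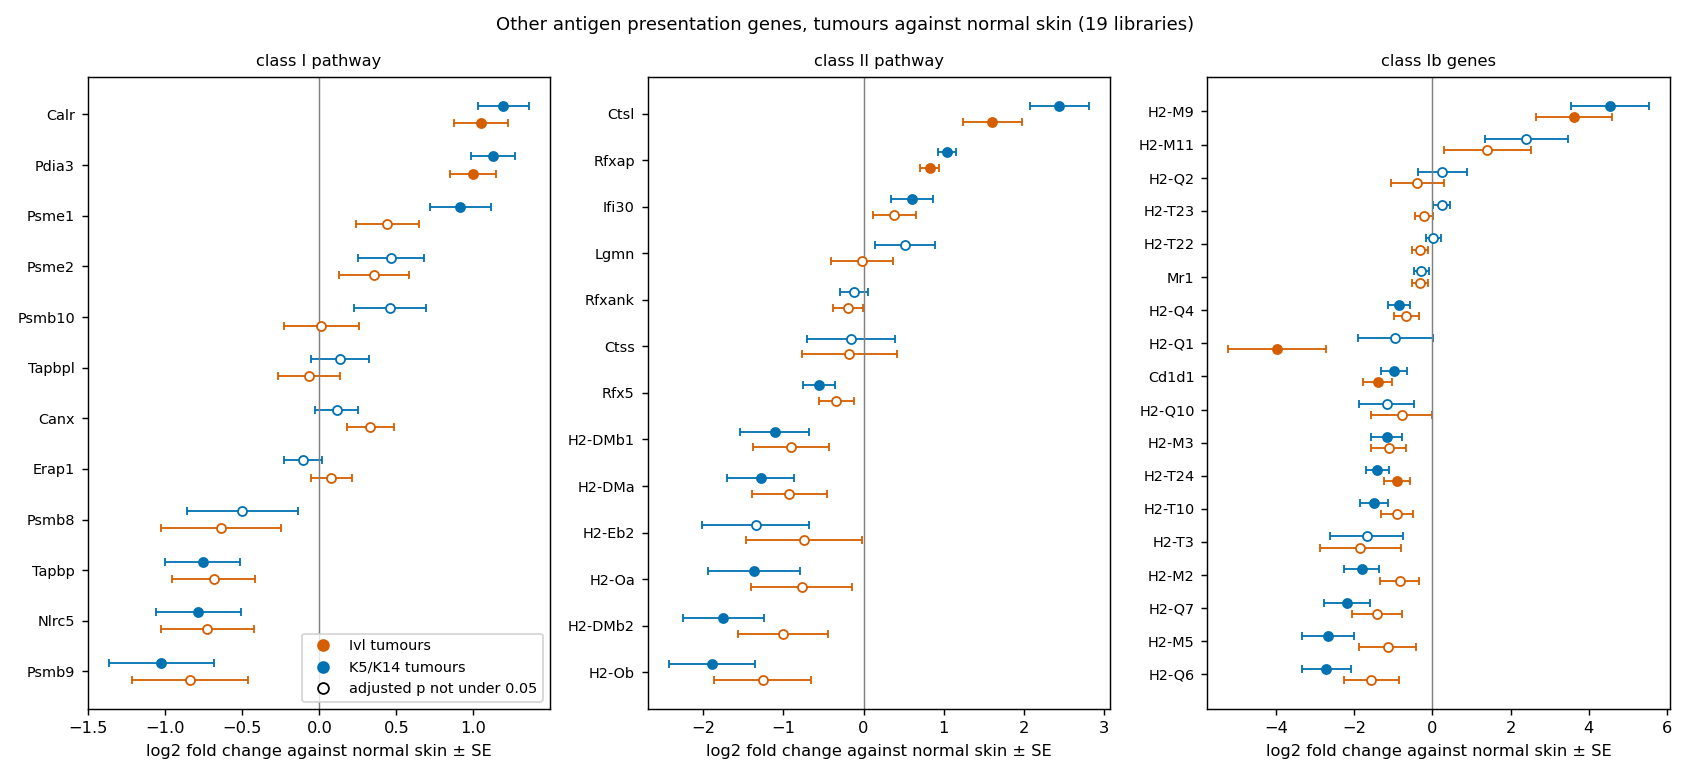
Log2 fold change against normal skin with its standard error (x axis) for the tested genes of the class I pathway, the class II pathway and the class Ib family (y axis) in Ivl and K5/K14 tumours over 19 libraries, with filled points at an adjusted p under 0.05. Rfxap, Ctsl, Calr, Pdia3 and H2-M9 are filled right of 0 in both tumour groups.

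In the class I pathway 3 of 12 genes fell, against 38.9% of all genes, and 3 rose, against 23.2%, in K5/K14 tumours. The median log2 fold change of the 12 was 0.12, against -0.60 over all genes and -0.04 over protein-coding genes. Psmb9 (-1.03, adjusted p = 0.0143), an immunoproteasome subunit, Tapbp (-0.76, adjusted p = 0.0123), the tapasin that bridges class I molecules and the transporter, and Nlrc5 fell. Tapbp stood at 41.5, 63.8, 85.9 and 106 CPM in skin 1 to 4 and 38.4, 43.7 and 54.6 CPM in K5/K14 tumours. The chaperones Calr (1.19, adjusted p = 1.13e-05) and Pdia3 (1.13, adjusted p = 4.50e-06) and the proteasome activator subunit Psme1 (0.92, adjusted p = 0.000739) rose. Calr and Pdia3 are general folding factors of the endoplasmic reticulum, and they also rose in Ivl tumours (1.05, adjusted p = 0.000110 and 1.0, adjusted p = 4.41e-05), the only 2 of the 12 called there, against 20.4% of all genes called higher and 15.5% lower. The other immunoproteasome subunits Psmb8 (-0.50, adjusted p = 0.228) and Psmb10 (0.46, adjusted p = 0.0916) and the trimming peptidase Erap1 (-0.11, adjusted p = 0.456) did not pass in K5/K14 tumours. Between Ivl and K5/K14 tumours 0 of 12 were called with edgeR, with 2 at an unadjusted p under 0.05.

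Among 18 tested class Ib genes, the nonclassical heavy chains and their relatives, 9 fell, against 38.9% of all genes, and 1 rose, against 23.2%, in K5/K14 tumours. The median log2 fold change of the 18 was -1.08, against -0.60 over all genes and -0.04 over protein-coding genes. H2-Q6 fell most (-2.72, adjusted p = 0.00151), from 15.4, 52.1, 32.7 and 35.4 CPM in skin 1 to 4 to 2.25, 4.01 and 12.7 CPM, without overlap. H2-M5 (-2.68, adjusted p = 0.00220), H2-Q4 (-0.85, adjusted p = 0.0146) and H2-M3 (-1.17, adjusted p = 0.0165) fell too. H2-Q6 and H2-Q4 share near-identical sequence with other class I genes, so these values are uncertain. H2-T23, which encodes the ligand Qa-1 of the inhibitory receptor CD94/NKG2A, had 0.24 (adjusted p = 0.330). H2-M9 rose in both groups (4.54, adjusted p = 0.000874 and 3.62, adjusted p = 0.00723), from 0.0225 to 0.319 CPM in skin to 1.01 to 8.84 CPM in K5/K14 and 0.306 to 5.44 CPM in Ivl tumours, and it belongs to a gene list that the study chose on these samples, so its rise is not independent evidence. In Ivl tumours 3 class Ib genes fell, against 15.5% of all genes, H2-Q1, whose levels were low (0.0132 to 0.615 CPM in skin), Cd1d1 (-1.40, adjusted p = 0.00608), the lipid-presenting relative of class I, and H2-T24 (-0.91, adjusted p = 0.0342), and 1 rose, H2-M9, against 20.4%. Between Ivl and K5/K14 tumours 0 of 18 were called with edgeR, with 4 at an unadjusted p under 0.05.

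Interferon gamma, the main inducer of both classes, was near the limit of counting, with at most 13 counts of Ifng in any library. Of 14 genes of its pathway 2 fell and 3 rose in K5/K14 tumours (median -0.45), where 38.9% of all genes fell and 23.2% rose. In Ivl tumours 1 fell and 1 rose (median -0.48), where 15.5% of all genes fell and 20.4% rose. Socs1, a feedback inhibitor of the receptor, rose in both (1.15, adjusted p = 0.00186 and 1.29, adjusted p = 0.00207), and the kinases Jak1 (0.47, adjusted p = 0.0118) and Jak2 (0.46, adjusted p = 0.0235) rose in K5/K14 tumours. Gbp2, an interferon-induced GTPase, fell in K5/K14 tumours (-1.31, adjusted p = 0.0216), as did the factor Irf2 (-0.48, adjusted p = 0.0209), and its relative Gbp3 in Ivl tumours (-1.25, adjusted p = 0.0327). Ifngr1, a chain of the receptor, had -0.31 (adjusted p = 0.230) and Irf1, an interferon-induced transcription factor, had -0.43 (adjusted p = 0.181) in K5/K14 tumours. Between Ivl and K5/K14 tumours 0 of 14 were called with edgeR, with 0 at an unadjusted p under 0.05.

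Markers of the cell types that carry class II did not all go the same way in K5/K14 tumours, where 38.9% of all genes fell and 23.2% rose. Of 9 dendritic cell markers 7 fell and 0 rose (median -1.58), with Cd209a (-2.66, adjusted p = 0.0198), Clec9a (-2.06, adjusted p = 0.00437) and Flt3 (-1.80, adjusted p = 0.00353) changing most. Cd207, the langerin of Langerhans cells, fell (-1.64, adjusted p = 0.00863), while Mfge8 and Epcam of the same list, which keratinocytes also express, rose (1.30, adjusted p = 0.000804 and 0.55, adjusted p = 0.0252). Of 12 macrophage and monocyte markers 3 fell, Cd163 (-2.54, adjusted p = 0.00782), Ccr2 (-1.86, adjusted p = 0.0177) and Mertk (-1.62, adjusted p = 0.00100), and 0 rose. Values in skin and K5/K14 tumours overlapped for Cd209a, Flt3, Cd207, Cd163 and Ccr2, but not for Clec9a and Mertk. Of all genes 41.4% did not overlap. Cd207 stood at 1.15 to 14.3 CPM in skin and 0.691 to 3.89 CPM in K5/K14 tumours. For Ccr2 these were 6.82 to 72.8 CPM and 4.48 to 22.6 CPM. B cell markers were near 0 in all groups, with summed values of 0.44 to 3.11 CPM. Of the 5 listed, 1 was called higher in K5/K14 tumours and 1 in Ivl tumours, where 20.4% of all genes rose, and 0 were called lower in either. In Ivl tumours 2 dendritic cell markers fell, Clec9a (-1.65, adjusted p = 0.0461) and Zbtb46 (-1.46, adjusted p = 0.0180), against 15.5% of all genes, and Cd207 had -0.54 (adjusted p = 0.426).

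The genes most like the mean of the 5 class II genes over the 15 tumours, out of 14936 genes searched, were H2-DMa (r = 0.99), Myo1f (0.96), H2-Q6 (0.95), Fmnl1 (0.95) and Neurl3 (0.95). In the 11 tumours outside the set of 4 their r was 0.87 to 0.97. For the mean of the 5 class I genes they were 1600014C10Rik (r = 0.91), Ndrg3 (0.89), Cntfr (0.88), Il18r1 (0.86) and Faah (0.86), with r of 0.72 to 0.83 in the 11 tumours. All of these values come from the same libraries, with their depth and batch adjustment in common.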

How the data were processed

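RNA was sequenced from poly(A) libraries of 15 tumours and 4 normal skin samples as paired reads. The authors trimmed reads with Trim Galore, aligned them with HISAT2 2.1.0 to GRCm38 and counted them per gene with featureCounts (Subread 1.6.3), and then adjusted the counts for a sequencing batch with ComBat-seq. The deposited values are therefore estimated counts, whole numbers per Ensembl gene, not scaled for depth, and the adjustment can draw batches together. The use of strand in counting is not given in the sources used here, although the kit marks strand, so reads of overlapping genes on opposite strands may not have been told apart. Names came from GENCODE M21 (34694 of 34807 identifiers matched), and promoter sequences from RefSeq on GRCm38.p6.

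The filter asked for 5 counts or more in 1 library or more and left 32031 genes. Expression was tested with edgeR 4.0.16 (TMM, quasi-likelihood F test, R 4.3.3), with Ivl, K5/K14 and skin in 1 fit and Ivl, K5, K14 and skin in another. Benjamini-Hochberg adjusted p under 0.05 counted as called, and a log2 fold change is the fitted value with its SE. CPM use TMM-scaled library sizes, and log2 CPM used a prior count of 2. The comparisons with skin share the same 4 skin samples. Relations over tumours used permutation tests with 100000 resamples, two-sided (Python 3.11.15, scipy 1.17.1). No pair of libraries of a group agreed within sampling noise. The model was tested on simulated data. Alternatives were DESeq2 1.42.0 size factors, the DESeq2 test, no filter, edgeR's filterByExpr filter, protein-coding genes only, the set of 4 libraries left out or as a covariate, a replicate block, and each of 19 libraries left out.

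The 10 genes, the lists and the set of 4 were chosen with earlier results of these data known. Named beside the 10 genes were a set of regulators and pathway genes, the 3 called genes of each list with the largest change at a group mean of at least 1 CPM, and the 5 genes most like each class. H2-Q1, Psme1, Jak1, Jak2 and the other genes named to complete a count were chosen after their values were seen. P-values measure only the spread between these samples, which may be technical.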

Additional observations from a re-analysis of the deposited data

Results flagged for a closer look

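Within groups of 4 to 6 libraries, 2 of 40 sets of values of the 10 genes held a library far from the others by Dixon's test at the 95% level, and chance marks about 1 in 20 sets. Tap2 in K5 1 stood at 22.4 CPM, above the other 4 K5 tumours at 11.8, 14.4, 12.9 and 12.5 CPM, with a gap of 0.753 of the range of the group. Without K5 1 the log2 fold change of Tap2 in K5/K14 tumours against skin was -0.54 (adjusted p = 0.0618). Ciita in Ivl 2 stood at 28.6 CPM, above the other 5 Ivl tumours at 5.52, 13.6, 7.44, 4.62 and 5.93 CPM, with a gap of 0.626 of the range. Without Ivl 2 the log2 fold change of Ciita in Ivl tumours against skin was -1.73 (adjusted p = 0.000972). Both libraries belong to the set of 4.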

How the results depend on the processing

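Across 27 alternatives in 6 comparisons, values of single MHC genes stayed on their side of the threshold in 1501 cases, gained a call in 69 and lost one in 50. No called value changed sign, but uncalled values did in 49 cases, among them H2-K1 in Ivl tumours against skin (-0.09 without skin 1) and the 5 class II genes between Ivl and K5/K14 tumours without the set of 4. For Ivl tumours against skin, where 1 of 10 genes was called, the count was 2 with DESeq2 size factors, with DESeq2, with filterByExpr, without the set of 4 and with the set as a covariate, 3 with protein-coding genes only, 0 with the replicate block, and 0 to 4 with 1 library left out. Of all genes 35.9% were called in the main fit. In the order named, the alternatives called 12540, 11701, 10084, 17566, 14844, 8097 and 7700 genes, and 9165 to 14757 with 1 library left out. For K5/K14 tumours against skin the count of the 10 genes was 6, with 1 under the replicate block and 1 (without skin 3) to 8 (without skin 1) with 1 library left out. Of all genes 62.2% were called in the main fit, and 18286, 18397 and 18017 genes in these 3 alternatives. For K5 tumours against skin the count of the 10 genes was 1, but 4 with DESeq2 size factors, 6 with DESeq2, 6 with filterByExpr, 7 with protein-coding genes only, 3 without the set of 4, 2 with the set as a covariate and 1 to 6 with 1 library left out. Of all genes 55.7% were called in the main fit. In the order named, the alternatives called 18380, 17011, 14979, 10667, 19577 and 19344 genes, and 15687 to 18553 with 1 library left out. For K14 tumours against skin the count of the 10 genes was 1, but 3 with DESeq2 and 1 to 5 with 1 library left out. Of all genes 46.5% were called in the main fit, 14772 genes with DESeq2 and 11240 to 15919 with 1 library left out. Between tumour groups the count of the 10 genes was 0 throughout. The relation of Ciita with Cd74 had r = 0.57 without Ivl 2 and Ivl 3, that of Nlrc5 with B2m r = 0.034 in the 11 tumours outside the set and 0.0024 without Ivl 1 and K5 1, and that of Nlrc5 with Tap1 r = 0.32 in the 11 tumours. The cause of these changes was not tested.

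Libraries of different groups that share a replicate number correlated at -0.50 to 0.43 (25 pairs, median -0.0064), so the numbers do not pair them. With the replicate block the log2 fold change of Ciita was -1.74 (adjusted p = 0.00179) in K5/K14 tumours and -0.97 (adjusted p = 0.119) in Ivl tumours. All-gene medians against skin moved from -0.46 to -0.59 in Ivl and from -0.60 to -0.71 in K5/K14 tumours with DESeq2 size factors. With 4 skin samples in a low and a high pair, the class II chains and Cd74 in skin are known only within that spread, and no number of counts narrows it.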

Other observations

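The ratio of H2-D1 to B2m, heavy chain to light chain transcripts, was taken after the values were seen and was not tested. H2-D1 CPM per B2m CPM was 1.33, 0.960, 1.05 and 1.0 in skin 1 to 4, although B2m itself ranged from 154 to 652 CPM there. It was 1.79 to 2.38 in the 11 tumours outside the set of 4, all above all skin samples. In the set of 4 it was 4.69 in Ivl 1, 1.55 in Ivl 2, 0.806 in Ivl 3 and 1.396 in K5 1.

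Neutrophil markers summed to 9.10 to 36.8 CPM in skin and 103 to 6575 CPM in tumours, with Ly6g listed at 0 counts in every skin sample. The sum stands mainly for S100a8 and S100a9, with means of 966 and 1352 CPM in Ivl and 1403 and 2256 CPM in K5/K14 tumours. Of the 7 markers 4 rose and 1 fell in each. In K5/K14 tumours 23.2% of all genes rose and 38.9% fell, in Ivl tumours 20.4% and 15.5%. The T cell genes Cd3e (-2.66, adjusted p = 0.000243), Cd3g (-1.96, adjusted p = 0.00839), Cd8a (-1.40, adjusted p = 0.0196) and Trdc (-2.19, adjusted p = 0.00398) fell in K5/K14 tumours by the edgeR test, 4 of 8 in the list against 38.9% of all genes, with 0 rising. In Ivl tumours over 19 libraries 0 of 8 were called, against 15.5% of all genes called lower, and 1 had an unadjusted p under 0.05. Trdc marks gamma delta T cells, which in mouse skin include the resident dendritic epidermal T cells. The difference between the tumour groups was tested for each gene, and 0 of 8 were called by edgeR, with 2 at an unadjusted p under 0.05.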
